A study of Mus musculus with 6 samples.

Results

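Scand1 is a gene on mouse chromosome 2, and Cnbd2 is the gene that overlaps it on the opposite strand. These 2 genes were taken from a table of 55414 genes. Scand1 was selected on measured values, as the gene with good read coverage whose level was lowest in VC relative to control, and Cnbd2 was added because of its position. Their VC against control values are therefore a description and carry no test. The cells were TM4, an established mouse testis line that serves as a Sertoli cell model in culture; Sertoli cells are the somatic cells that support sperm as they develop. RNA sequencing covered 3 control libraries and 3 libraries labelled VC. The title of the series points to vitamin C, but valine is the agent entered for the VC libraries and in the design, so the name VC is kept here. The labels give no dose, no exposure time and no genetic change in either group. They do not say whether the 3 libraries of a group came from separate cultures, so p-values measure only the spread between these libraries, which may be technical.

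The SCAN domain is a short motif through which a family of zinc finger transcription factors pair with each other. Scand1 carries the SCAN domain without the zinc fingers, so it can pair with family members without binding DNA through fingers of its own. It is also known as PGC-2, a cofactor of the lipid-metabolism receptor PPAR-gamma, and in human cancer cells it has been linked to the epithelial-mesenchymal transition together with its partner MZF1. Cnbd2, also called Cris, encodes a cyclic nucleotide binding protein known for its role in sperm function and male fertility.

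Scand1 (ENSMUSG00000046229) lies on the minus strand and Cnbd2 (ENSMUSG00000038085) on the plus strand. In the GENCODE M21 annotation of build GRCm38, Scand1 has 2 exons, of 203 and 556 bases, parted by an intron of 99 bases. The first exon of Cnbd2 starts inside the second exon of Scand1, on the other strand, runs back through the Scand1 intron and first exon, and ends 95 bases upstream of the Scand1 start, so the genes are transcribed in opposite directions from starts that overlap head to head. In that annotation 307 exonic bases were shared, all 203 of the first Scand1 exon and 104 of the second, which made up 40.5% of the Scand1 exons and 7.91% of the Cnbd2 exons. The remaining 452 exonic bases of Scand1 were its own. The submitters' processing notes name build GRCm39, for which no annotation was used here, so the shared length in the authors' gene models was not analysed here.

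**Figure D1:**
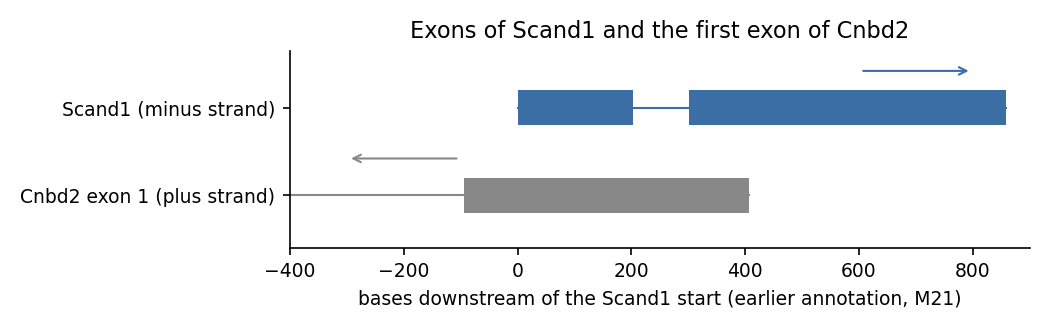
Exons of Scand1 (upper row) and the first exon of Cnbd2 (lower row), drawn in bases from the Scand1 start in the M21 annotation, with arrows for the direction of transcription. The Cnbd2 exon spans from 95 bases upstream to 405 bases downstream of the Scand1 start and covers the first Scand1 exon and 104 bases of the second.

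The stretch just upstream of Scand1, beyond the end of the first Cnbd2 exon, is shown because it is the part of the Scand1 promoter window that holds no exon of either gene. It covers 250 to 96 bases upstream of the Scand1 start, at chr2:156312800-156312954 of GRCm38.p6 on the minus strand, and the letters are from RefSeq. Capitals mark the 1 match to the GC box.
Scand1 upstream: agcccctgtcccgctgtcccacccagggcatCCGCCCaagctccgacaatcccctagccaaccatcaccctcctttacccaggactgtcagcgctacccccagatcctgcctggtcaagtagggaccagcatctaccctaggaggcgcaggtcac
The GC content of these 155 bases was 63.2%, higher than in 82.4% of the 32851 windows of the same position in the RefSeq promoter table (median 51.0%), and they held 5 CpG sites against a median of 3. Both strands were searched for 4 motifs. The GC box GGGCGG matched 1 time, a motif present in 17.4% of the windows. There was no match to the TATA box TATAAA, present in 7.47% of windows, to the CCAAT box, present in 20.7%, or to the E-box CACGTG, present in 3.01%. Cnbd2 is not among the entries of that table.

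Scand1 RNA was about 3 times lower in VC than in control. The deposited values, which are TMM-scaled TPM (transcript abundance per unit of length, so comparable between genes), were 41.2, 39.2 and 38.4 in control replicates 1 to 3 and 14.3, 16.2 and 9.13 in VC replicates 1 to 3. The groups did not overlap, and the lowest control library was 2.38-fold above the highest VC library. Among all 13972 genes with a value of at least 1 in at least 3 libraries, the genes tested here, 1622 (11.6%) had all 3 VC values below all 3 control values. The group means were 39.6 ± 1.43 in control and 13.2 ± 3.64 in VC (SD, n = 3 each), a ratio of 3.002. On the log2(value + 1) scale, which understates changes at low levels, the VC minus control difference was −1.55 (SE 0.18 from the limma fit across all tested genes). In these bulk libraries, fewer cells carrying the transcript and less of it per cell cannot be told apart.

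The control libraries lay close together and the VC libraries did not. The coefficient of variation of Scand1 was 3.61% over the controls, below the 6.27% that read counting alone would give, and 27.6% over the VC libraries, above the counting value of 10.9%. VC replicate 3 was the lowest of the 6 libraries. Without it, the ratio of control to VC was 2.60 and the difference −1.33. In rank, the level of Scand1 exceeded that of 72.5% to 74.3% of tested genes in the controls and of 37.6% to 51.6% in VC.

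The Scand1 values rested on 59 to 256 reads a library. The deposited values, multiplied by exon length, fell on whole multiples of 1 read for most genes, which allowed reads to be recovered. For Scand1 the M21 exon length of 759 bases left values up to 0.477 read away from whole. Between 500 and 1500 bases, the only length that put all 6 libraries within 0.01 read of a whole number was 803 bases, 44 more than in M21, and the next best, 1333 bases, left a distance of 0.0584 read. With 803 bases, Scand1 had 256, 250 and 256 reads in control and 94, 100 and 59 in VC. VC libraries thus held 170 fewer reads on average (254 against 84.3).

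Cnbd2 was low in every library, and its groups were not separated as those of Scand1 were. Its values were 0.599, 0.713 and 1.18 in control and 0.660, 0.937 and 1.60 in VC. The groups overlapped, and replicate 3 was the highest library of each group. The means were 0.831 ± 0.308 and 1.07 ± 0.484 (SD, n = 3 each), a difference of 0.16 (SE 0.23) on the log2(value + 1) scale. This SE came from the library values of Cnbd2 alone, without limma, and by that measure the SE of Scand1 was 0.23 as well. Without VC replicate 3 the Cnbd2 difference was −0.02. Cnbd2 reached a value of 1 in only 2 libraries and so was not among the genes tested.

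Set against each other in reads, the sum of the pair was lower in VC. Scand1 held most of the pair's control reads (a mean of 254 of 280), so this sum largely restates the drop for which Scand1 was selected. With its M21 length of 3879 bases, Cnbd2 had 18, 22 and 38 reads in control and 21, 28 and 50 in VC, each within 0.0122 read of whole. The 2 genes together had 274, 272 and 294 reads in control (280 ± 12.2) and 115, 128 and 109 in VC (117 ± 9.71, SD, n = 3 each), without overlap. The mean difference of 163 reads for the pair compares with 170 fewer for Scand1 and 7 more for Cnbd2. Cnbd2 made up 6.57%, 8.09% and 12.9% of the pair's reads in control and 18.3%, 21.9% and 45.9% in VC. The labels do not say whether the libraries kept strand or how reads in the shared bases were counted, so reads from one gene of the pair and the other cannot be told apart there.

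**Figure D2:**
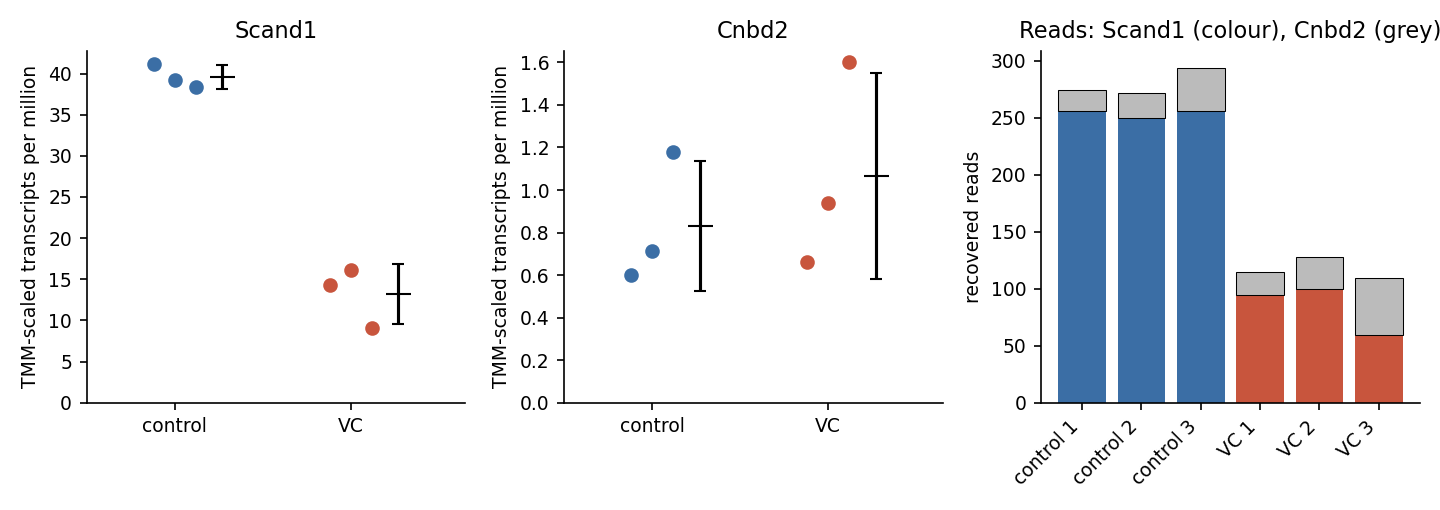
Deposited values of Scand1 and Cnbd2 (TMM-scaled TPM; points are libraries, bars the mean ± SD of 3) and, on the right, recovered reads per library, with Scand1 in colour and Cnbd2 stacked in grey. The 3 control libraries of Scand1 lie between 38.4 and 41.2 and the 3 VC libraries between 9.13 and 16.2, while the Cnbd2 groups overlap and are at most 1.60.

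Among the 10352 tested genes with at least 100 recovered reads on average in control, no other gene had as large a drop as Scand1. The next was Rps27a-ps2, a processed pseudogene of a ribosomal protein gene whose reads may be shared with near-identical copies, with a difference of −0.98. Its values were 1461, 719 and 1812 in control and 325, 508 and 1494 in VC, so its groups overlapped. The unnamed gene 0610012G03Rik followed at −0.98 with values of 35.9, 35.3 and 38.7 against 24.8, 18.5 and 12.9, which did not overlap. Neither passed the limma test (Benjamini-Hochberg adjusted p = 0.437 and 0.0883). The predicted gene Gm2004 followed at −0.81 with overlapping groups (adjusted p = 0.525). Fhl1, a LIM-domain protein of muscle and stress fibres, fell by 0.78 (adjusted p = 0.0190), and Jund, a subunit of the AP-1 transcription factor, fell by 0.74 (adjusted p = 0.0454). Both calls were lost without single libraries: for Fhl1 the limma adjusted p was 0.0864 and 0.0807 without control replicates 1 and 2 and 0.0891, 0.0793 and 0.0621 without VC replicates 1, 2 and 3. For Jund it was 0.138, 0.0939 and 0.0777 without control replicates 1, 2 and 3 and 0.0818, 0.167 and 0.171 without VC replicates 1, 2 and 3. These fits called only 0 or 1 gene in the whole table, except the fit without control replicate 3, which called 83. In them the Fhl1 difference stayed between −0.83 and −0.71 and that of Jund between −0.84 and −0.66. Of the 3724 other tested genes with a control level at or above that of Scand1, 29 were called higher (0.779%, next to 0.429% of all tested genes). In the other direction, 31 were called lower (0.832%, next to 0.258%), and 26.2% had all VC values below all control values, next to 11.6%. The lowest difference was −1.37, in a gene without an annotated length that is described with the genes ranked whatever their reads.

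Scand1 stood 11th from the lowest when all tested genes were ranked whatever their reads, and 47 other genes had a difference of −1 or lower. Of these 47, 30 had exons no longer than those of Scand1, 17 had no length in the annotation used here, and 1 was called, the short predicted gene Gm45027, named after its values were seen. Only 2 of them had a mean level above that of Scand1, both without a symbol or length here, and they were picked out after their values were seen. The gene ENSMUSG00002076173 had values of 6998, 6892 and 6373 in control and 6023, 5074 and 941 in VC (difference −1.14, adjusted p = 0.418 in limma). The gene ENSMUSG00002075524 had values of 215, 216 and 209 in control and 156, 114 and 30.5 in VC (difference −1.37, adjusted p = 0.264). In both, as in Scand1, VC replicate 3 was the lowest library. Whether the 3 genes share a source for that low library was not tested, and without that library the Scand1 difference was −1.33.

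**Figure D3:**
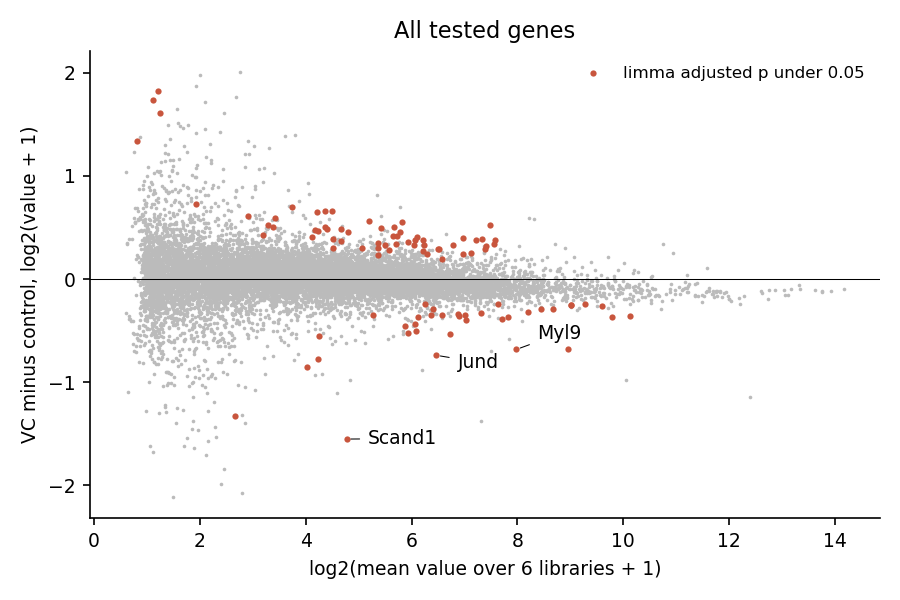
VC minus control difference in log2(value + 1) against the log2 of the mean value over 6 libraries plus 1, one point for each of the 13972 tested genes, with genes at a limma adjusted p under 0.05 in red. Scand1 sits at −1.55, and the lowest gene with a higher mean level sits at −1.37.

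Scand1 is short and rich in G and C. Its exons were shorter than those of 87.5% of the 13769 tested genes with an annotated length and richer in GC than 99.9% of them; the exons were 68.4% GC, against 51.9% in Cnbd2. The 1723 other genes as short or shorter had a median difference of −0.03, and 30 of them had a difference of −1 or lower on the log2(value + 1) scale. Of the 1723, 7 were called higher and 4 lower (mt-Tl1, mt-Ty, Lce1h and Gm45027, named after their values were seen). The 18 other tested genes that were as GC-rich had a median of −0.12 and a lowest value of −0.41, with 0 called. For the 12 that were both as short and as GC-rich the median was −0.11, again with 0 called. Over all tested genes the median was 0.01, with 60 called higher (0.429%) and 36 called lower (0.258%), 96 in all (0.687%). The part of length or GC content in the Scand1 value was not tested.

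Many genes, like Scand1, share exons with a gene on the other strand. Among 170 other tested genes with an opposite-strand exon overlap at least as large a share of their length as in Scand1, the median difference was −0.01, 0 were called higher and 1 lower (0.588%, next to 0.258% of all tested genes), and 20 (11.8%) had all VC values below all control values, next to 11.6% of all tested genes. The 1 lower gene was Jund, with 52.6% of its exons overlapped and values of 110, 97.6 and 120 in control and 75.0, 63.2 and 57.8 in VC. Of the 3740 genes with any such overlap, 10 were called higher (0.267%, next to 0.429% of all tested genes) and 2 lower (0.0535%, next to 0.258%), with a median of 0.02. The 2 were Jund and Ccn2, a matricellular protein named after its values were seen.

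Scand1 ranked first among genes with a SCAN domain in control but not in VC. In all 3 control libraries it had the highest level of the 42 family entries in the table, ahead of Zfp445 or Zkscan17 at 33.2 to 35.5. In VC replicates 1 to 3 it ranked 7th, 6th and 13th, while the highest other member remained between 34.4 and 36.2. None of the 41 other members passed the test, of which 27 were tested, 14 were too low and 4 of these were at 0 in every library. Members are counted as entries, and the symbol Zkscan7 stands on more than 1 of them, none tested. The limma count was 0 of 27, the count at an unadjusted p under 0.05 was also 0, and limma-voom on recovered reads called 0. Over all genes tested, limma called 0.687%, 17.2% had an unadjusted p under 0.05, and limma-voom called 3.33% higher and 1.06% lower. The summed level of the other members was 261 to 271 in control and 271 to 279 in VC.

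The zinc finger members that Scand1 could pair with had differences near that of all genes. Their median was 0.04, with 19 above 0 and 8 below, next to 0.01 over all tested genes. The 4 with the highest levels, all zinc finger proteins, were Zfp445 at 33.1 ± 2.64 in control and 34.6 ± 1.51 in VC, Zkscan17 at 32.3 ± 0.820 and 32.4 ± 1.99, Zscan25 at 19.99 ± 2.49 and 22.3 ± 2.17, and Zfp110 at 18.6 ± 0.547 and 18.5 ± 0.735 (SD, n = 3 each). The extremes, picked out after their values were seen, were Zscan21 at −0.34 (adjusted p = 0.319 in limma) and Zscan20 at 0.25 (adjusted p = 0.359). Zscan21 had values of 5.81, 6.21 and 5.69 in control and 3.24, 5.28 and 5.05 in VC. It was the 1 tested member besides Scand1 with all VC values below all control values, as in 11.6% of all tested genes. In 4 members (Zfp369, Zscan29, Zkscan8 and Zscan20, named after their values were seen) all VC values lay above all control values. The share of all genes in that direction is not given here. Mzf1, the known SCAND1 partner, was below the filter, with values between 0.349 and 0.736 in the 6 libraries.

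**Figure D4:**
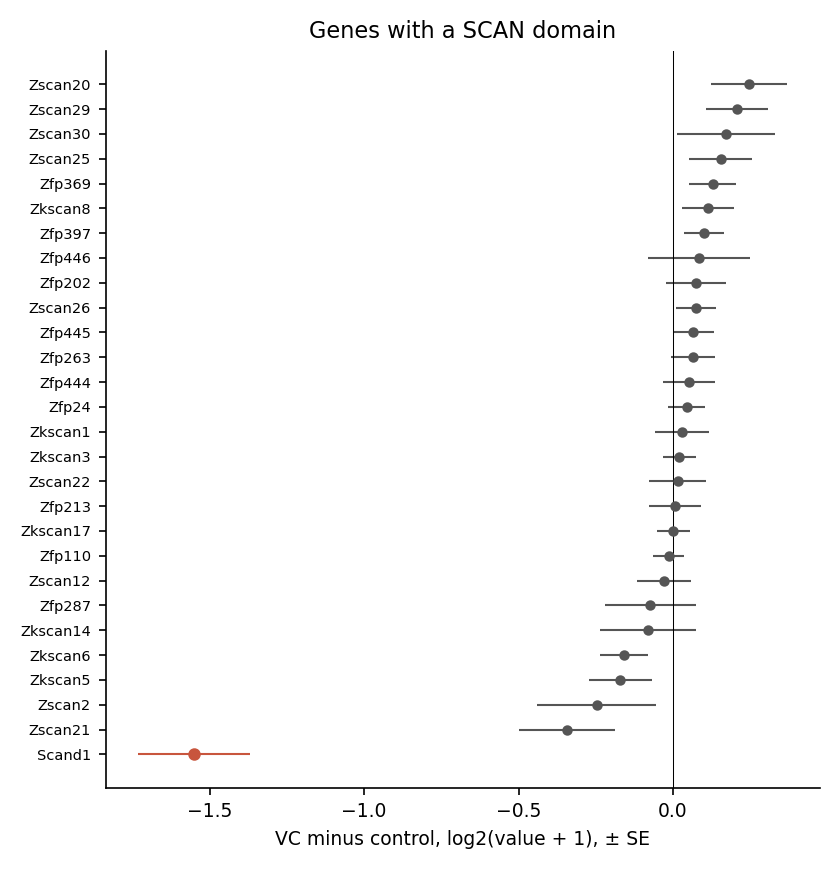
VC minus control difference in log2(value + 1) for Scand1 (red) and the 27 other tested genes with a SCAN domain, with bars for the limma SE. Scand1 lies at −1.55 and the other members between −0.34 and 0.25.

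PPAR-gamma itself, the receptor for which Scand1 is described as a cofactor, was listed at 0 in all 6 libraries under its gene symbol Pparg. Of 30 listed partners and targets, 16 were tested and 0 were called, next to 0.687% of all tested genes, and 6 had an unadjusted p under 0.05, next to 17.2%. Limma-voom on recovered reads called 3 higher (Scd1, Ppargc1a and Cpt1a), next to 3.33% of all genes, and 0 lower. Their median difference was 0.07. The target with the highest level was the desaturase Scd1, at 191, 185 and 172 in control and 224, 218 and 229 in VC (difference 0.29, limma adjusted p = 0.0538). The groups did not overlap, but the gene did not pass the threshold. The next in level were Plin2, a lipid droplet coat protein (0.14), Ucp2, a mitochondrial carrier (−0.08), and Lpl, the lipoprotein lipase (−0.11), with adjusted p between 0.256 and 0.473. Ppargc1a, the better known PPAR-gamma coactivator, had the highest difference, 0.38, at 2.50 ± 0.104 in control and 3.55 ± 0.247 in VC (adjusted p = 0.140), and was picked out after its values were seen.

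Genes of the epithelial-mesenchymal transition, with which Scand1 has been linked, had 0 members past the limma threshold. Of 23 listed, 18 were tested and 0 were called, a count near the 0.687% called among all tested genes. An unadjusted p under 0.05 was found for 4 (17.2% of all tested genes), and limma-voom called 1 higher, Tgfb1 (3.33% of all genes). Their median was −0.01, with 8 above 0 and 10 below. All VC values lay below all control values in 5 of the 18 (Vim, Itgb1, Twist1, Cdh2 and Snai2), next to 11.6% of all tested genes. The share was 26.2% among genes with a control level at or above that of Scand1, which all 5 had. Others of the 18 were below that level, so neither share is a matched background. In 2 (Mmp2 and Tgfb1) all VC values lay above all control values, a direction for which the share of all genes is not given here. The 4 at the highest levels were the intermediate filament Vim (−0.08), the matrix protein Fn1 (0.09), the integrin Itgb1 (−0.08) and the adhesion and signalling protein Ctnnb1 (−0.01), with limma adjusted p between 0.280 and 0.885. The transcription factor Snai2 was the lowest, at 40.5 ± 1.21 in control and 34.1 ± 1.43 in VC (difference −0.24, adjusted p = 0.0756), and Tgfb1 the highest at 0.22 (adjusted p = 0.133). Both were picked out after their values were seen.

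Among the cyclic nucleotide binding proteins, the family of Cnbd2, 1 gene rose. Of 31 others, 11 were tested, 20 were too low and 8 of these were at 0 in every library. Prkg2, a cGMP-dependent protein kinase, had values of 128, 129 and 122 in control and 153, 150 and 149 in VC, without overlap. It rose by 0.25 (SE 0.04, limma adjusted p = 0.0389), and 0.429% of all tested genes were called higher. Its adjusted p was 0.124 without control replicate 1, 0.103 without control replicate 2, and 0.151, 0.167 and 0.182 without VC replicates 1, 2 and 3. The call was thus lost with any of these libraries left out. Each of these fits called only 0 or 1 gene in the whole table, and the Prkg2 difference stayed between 0.24 and 0.26. The Prkg2 adjusted p was 0.0754 with no filter on low values and 0.118 without the variance trend. The 3 other members with the highest levels, the regulatory subunits Prkar1a, Prkar2a and Prkar2b of protein kinase A, had differences of −0.02, −0.04 and −0.05. The median of the 11 was 0.09, with 3 at an unadjusted p under 0.05, next to 17.2% of all tested genes. Limma-voom called 2 higher (Prkg2 and Pnpla6), next to 3.33% of all genes. In 4 of the 11 all VC values lay above all control values. The share of all genes in that direction is not given here, so this count has no background. In 1 of the 11 all VC values lay below, next to 11.6% of all tested genes.

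The nearest tested genes on each side of Scand1 and Cnbd2 on chromosome 2 had similar values in both groups, while Myl9 and Rab5if further out were lower in VC. Phf20, a chromatin reader and the nearest protein-coding gene on one side, had 19.5 ± 1.00 in control and 19.7 ± 0.577 in VC, and the splicing factor Rbm39 beyond it 112 ± 2.83 and 114 ± 4.79. On the other side, past Cnbd2, the cytoskeletal protein Epb41l1 had 33.8 ± 0.888 and 32.4 ± 0.483, and the splicing factor Aar2 22.5 ± 0.366 and 23.6 ± 1.14 (SD, n = 3 each). Of the 19 nearest protein-coding genes besides Cnbd2, 14 were tested and their median difference was −0.0049, with 6 above 0 and 8 below; 5 were below the filter (Fer1l4, Spag4, Cpne1, Gm28036 and Sla2). The other tested ones that did not pass were Ergic3, Rbm12, Nfs1, Romo1, Dlgap4, Tgif2, 4930518I15Rik, Rab5if and Ndrg3. Of all 14, 2 had an unadjusted p under 0.05, next to 17.2% of all tested genes. All VC values lay below all control values in 2 (Myl9 and Rab5if), next to 11.6%. They lay above in 0, a direction for which the share of all genes is not given here. Limma-voom called 1 lower, Myl9, next to 1.06% of all genes.

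The 1 neighbour past the threshold was Myl9, the regulatory light chain of smooth muscle and non-muscle myosin, which is the fifth gene on the Cnbd2 side. Its values were 304, 300 and 326 in control and 192, 204 and 182 in VC, without overlap. It fell by 0.68 (SE 0.05, limma adjusted p = 0.0111), where 0.258% of all tested genes were called lower. The adjusted p was 0.0696 and 0.0743 without control replicates 1 and 2 and 0.0538, 0.0793 and 0.0621 without VC replicates 1, 2 and 3. This call too was lost with any of these libraries left out, in fits that called only 0 or 1 gene in the whole table. The Myl9 difference stayed between −0.72 and −0.64 in them. Its adjusted p was 0.0643 without the variance trend. Rab5if had the second lowest neighbour value, −0.52, with 52.0, 33.2 and 33.8 in control and 26.3, 29.3 and 25.0 in VC (adjusted p = 0.198).

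**Figure D5:**
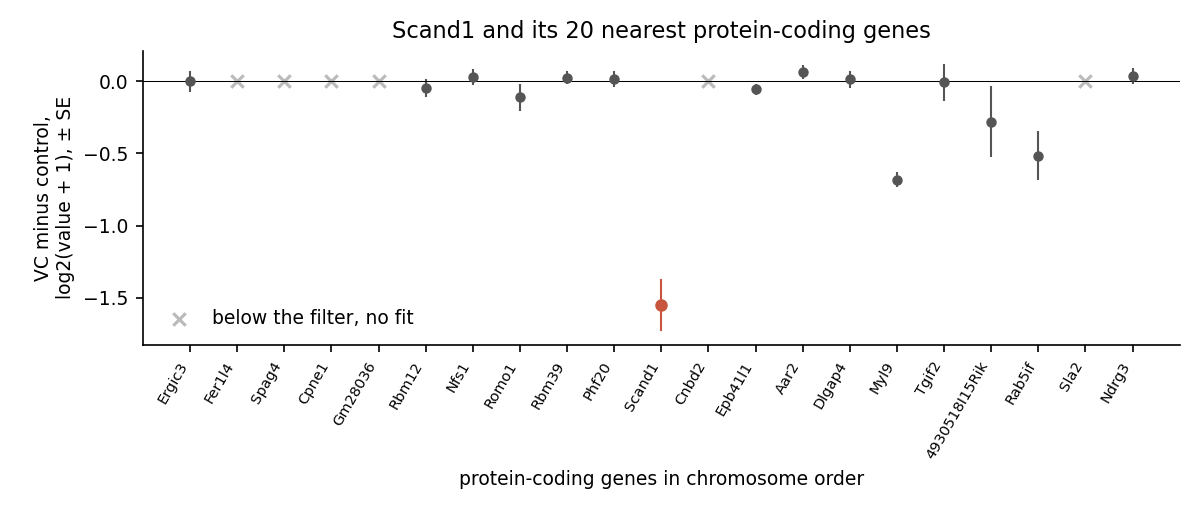
VC minus control difference in log2(value + 1), with the limma SE, for Scand1 (red) and its nearest protein-coding genes in chromosome order; crosses mark genes below the filter, which have no fit. Scand1 at −1.55 lies beside genes near 0, and Myl9 at −0.68 is the 1 neighbour past the limma threshold.

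The genes whose log2(value + 1) ran most like that of Scand1 over the 6 libraries are given as a description. Scand1 was selected as the largest drop among well-read genes, so smaller differences in the others largely follow from that choice. Genes that run like Scand1 also differ between the groups by that choice, so their limma p-values are no separate test. Of 9620 named genes compared, 76 (0.79%) had a Pearson correlation of 0.95 or more, a description over 6 libraries that fall into 2 groups. The closest was B3gnt2, a glycosyltransferase that extends sugar chains (r = 0.996), with values of 5.47, 5.51 and 5.13 in control and 3.12, 3.57 and 2.58 in VC (difference −0.64, limma adjusted p = 0.0629). As for Scand1, its highest VC library was replicate 2 and its lowest replicate 3. The next were the transcription factor Shox2 (r = 0.992, difference −0.14), the spindle orientation protein Gpsm2 (r = 0.992, −0.18) and the calcium-binding protein Rcn1 (r = 0.991, −0.20), none past the threshold. Rab2a, a small GTPase of early secretory traffic (r = 0.990), had values of 239, 237 and 234 in control and 186, 183 and 172 in VC and fell by 0.39 (adjusted p = 0.0189). Its limma adjusted p was 0.0864 and 0.0807 without control replicates 1 and 2 and 0.0710, 0.101 and 0.0799 without VC replicates 1, 2 and 3. These fits called only 0 or 1 gene in the whole table, and the Rab2a difference stayed between −0.41 and −0.36 in them. Among all tested genes, 0.258% were called lower in the main fit.

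The libraries were of similar depth, and germ cell and Sertoli cell markers were looked at. Recovered reads ran from 20405351 to 22313298 per library and genes above 0 from 21282 to 21704, and correlations of log2 values were 0.986 to 0.988 within groups and 0.984 to 0.986 between them. Of 20 germ cell markers, the cell type in which Cnbd2 acts, 3 were tested and 0 called, with 0 at an unadjusted p under 0.05 and 0 called by limma-voom. Their summed level was 5.95 to 6.81 in control and 6.55 to 8.57 in VC. Ddx4 was at 0 in all libraries, and the protamine Prm1 was at 0 in control and at 0.213, 0.454 and 0.435 in VC, on at most 2 reads in a library. Of 19 Sertoli cell markers, 11 were tested and 0 called, with 3 at an unadjusted p under 0.05 and Inhbb among those called higher by limma-voom. Over all tested genes, limma called 0.687% and 17.2% had an unadjusted p under 0.05, while limma-voom called 3.33% higher and 1.06% lower. The median difference of the 11 Sertoli cell markers was 0.17, with 9 above 0 and 2 below, next to a median of 0.01 over all tested genes. The summed level of all 19, most of it Vim (1165 to 1330), was 1457 to 1544 in control and 1410 to 1464 in VC. The part of these markers in the Scand1 value was not tested. Sox9 was at 2.83 to 3.97, Gata4 at 18.6 to 22.3 and Inhbb at 151 to 180, whereas Wt1 and the receptor Fshr were at 0 in every library, against the Sertoli cell label of the line.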

How the data were processed

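Total RNA from TM4 cells was made into TruSeq libraries, per the labels' protocols. Reads were aligned with HISAT2 to GRCm39, per the submitters' processing notes. How reads were counted, on which annotation release and with what use of strand is not given in the sources used here. Each value in the deposited table is a signal that behaves, per gene and library, as TPM with TMM scaling by the authors. Columns were matched to samples by group letter and number. Symbols (52081 of 55414 rows) and exon lengths came from GENCODE M21 on GRCm38, an earlier build. Value times exon length fell within 0.1 read of whole for 98.7% to 98.9% of values worth up to 1000 reads; these recovered reads served for depth, for Scand1 and Cnbd2, and for 1 alternative.

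VC was compared with control on log2(value + 1) by a two-sided test in limma 3.58.1 (R 4.3.3), whose empirical Bayes step used an intensity trend, over genes at 1 or more in at least 3 libraries, with Benjamini-Hochberg adjustment over all 13972 genes and a threshold of 0.05. The procedure was tested on simulated data. Scand1 and Cnbd2 got no test. The result of 1 list member is not reported here. Genes were named by rule: the 20 nearest protein-coding genes, the called members and the 4 highest of each list, the 5 most like Scand1 and the 5 next largest drops. The members, lists and rule were chosen with earlier results of these data known. Motifs and coordinates use RefSeq sequences on GRCm38.p6. Python 3.11.15, pandas 2.3.3, numpy 2.4.6 and matplotlib 3.10.9 were used.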

Additional observations from a re-analysis of the deposited data

How the results depend on the processing

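The Scand1 difference kept its direction in all 15 alternatives, from −1.71 without VC replicate 2 to −1.31 with a pseudocount of 5. That of Cnbd2 stayed within 1 SD of its main value in all 15, from −0.02 without VC replicate 3 to 0.34 with limma-voom on recovered reads. The number of genes called by limma was less stable than these values. It was 96 (60 higher, 36 lower), and became 30 with no filter on low values, 183 with a filter at 5, 6 without the variance trend and 604 (458 higher, 146 lower) with limma-voom on recovered reads. Scaling all libraries to equal totals gave 217 calls, 182 higher and 35 lower, and moved the median difference of all genes from 0.01 to 0.08. Leaving out 1 library gave 0 to 83 calls: 83 without control replicate 3, 1 each without control replicate 1 or VC replicate 3, and 0 without control replicate 2, VC replicate 1 or VC replicate 2, with 1607 to 2478 genes at an unadjusted p under 0.05 against 2410. With a replicate block limma called 0 genes, with 2039 at an unadjusted p under 0.05, and Prkg2 and Myl9 had an adjusted p of 0.143 and 0.107; same-numbered libraries did not deviate together (correlations −0.019, −0.011 and 0.005), so they share only a number. The cause of these shifts was not tested. The alternatives for the 5 called genes named (Prkg2, Myl9, Fhl1, Jund and Rab2a) were added after seeing the data. Pseudocounts of 0.1 and 5 and median-of-ratios scaling gave 88 to 92 calls. Of the list medians, 3 settings moved the SCAN family's, 2 that of PPAR-gamma, 4 that of the transition genes and 3 that of the cyclic nucleotide binding proteins by more than 1 SD. With 59 to 256 reads a library, counting alone would give Scand1 a coefficient of variation of 6.27% in control and 10.9% in VC. The spread over the VC libraries was larger, at 27.6%. Scand1 was selected for its drop, so these values do not test it. For Cnbd2, at 18 to 50 reads, counting would give 19.6% and 17.4%, and the spread was 37.1% and 45.4%. A Cnbd2 change of the size of its library spread could be missed here, and what size could be detected was not tested.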
